A study of Mus musculus with 3 samples.

Results

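Integrins and leukocyte adhesion molecules were followed as a list of 34 genes: 18 integrin alpha chains, 8 integrin beta chains and 8 counter-receptors and other adhesion molecules. The list was set by name, and all 34 were found by their Entrez numbers among the 27179 genes of the deposited count files. Transcripts were sequenced from cultured mouse pro-B cells, the stage at which B-cell precursors rearrange their heavy-chain locus. There were 2 samples of genotype Pax5-/-, lacking a transcription factor that commits cells to the B lineage, and 1 wild-type sample. All came from bone marrow of C57BL/6 mice. B220+ cells (B220 is a form of the surface phosphatase CD45 found on B-lineage cells) were expanded on OP9 cells, a mouse stromal feeder line. For both Pax5-/- samples, which the labels call independent and male, an IgM- fraction was taken at day 7. The wild-type sample is labelled female, and its protocol names neither a day nor an IgM depletion. Ages of the mice are not given in the labels. Genotype, sex and the stated isolation step cannot be told apart in any comparison of these 3 samples.

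Integrins are cell-surface heterodimers of 1 alpha and 1 beta chain that bind extracellular matrix or receptors on other cells. Their affinity is raised from inside the cell when talin and kindlin bind the beta chain tail, a step set off by the small GTPase Rap. In bone marrow, B-cell precursors are known to hold on to stroma through the alpha4 beta1 integrin and its counter-receptor VCAM-1, and leukocytes bind ICAM proteins through integrins of the beta2 chain.

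The libraries held 6487846 and 6697879 counts in Pax5-/- samples 1 and 2 and 6530057 in the wild type. Genes were tested with edgeR's quasi-likelihood test, and a gene is called when its p-value, adjusted over all genes tested, lies under 0.05. Levels are CPM (a gene's count as a share of the library, on a common scale) scaled by TMM, edgeR's correction for library composition. All 13 pro-B cell markers were detected in every library. Pax5 itself had 417, 551 and 1601 counts and was called lower (adjusted p = 0.0107; log2 fold change -1.78, SE 0.19). Which exons the allele lacks is not stated in the labels, and these gene counts do not show where in the gene the reads lie. The wild type has no replicate, so the spread comes from the Pax5-/- pair alone.

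Of the 34 genes, 21 had enough counts to be tested. In Pax5-/- 6 were called higher (Emb, Itgal, Itgb3, Itgb7, Itga4 and Itga5) and 1 was called lower (Cd44), which leaves 14 not called. The 7 called genes are 33.3% of the 21 tested, where 18.1% of all 11783 tested genes were called. By direction, 9.53% of all tested genes were called higher and 8.55% lower. The median log2 fold change of the 21 was 0.50, against 0.01 for all tested genes. A gene could enter the test through 1 library alone. Itga3, Itgad, Itgax, Itgb5 and Itgb7 entered through Pax5-/- libraries only, so the counts and the median describe the genes that passed the filter, not the whole list.

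**Figure D1:**
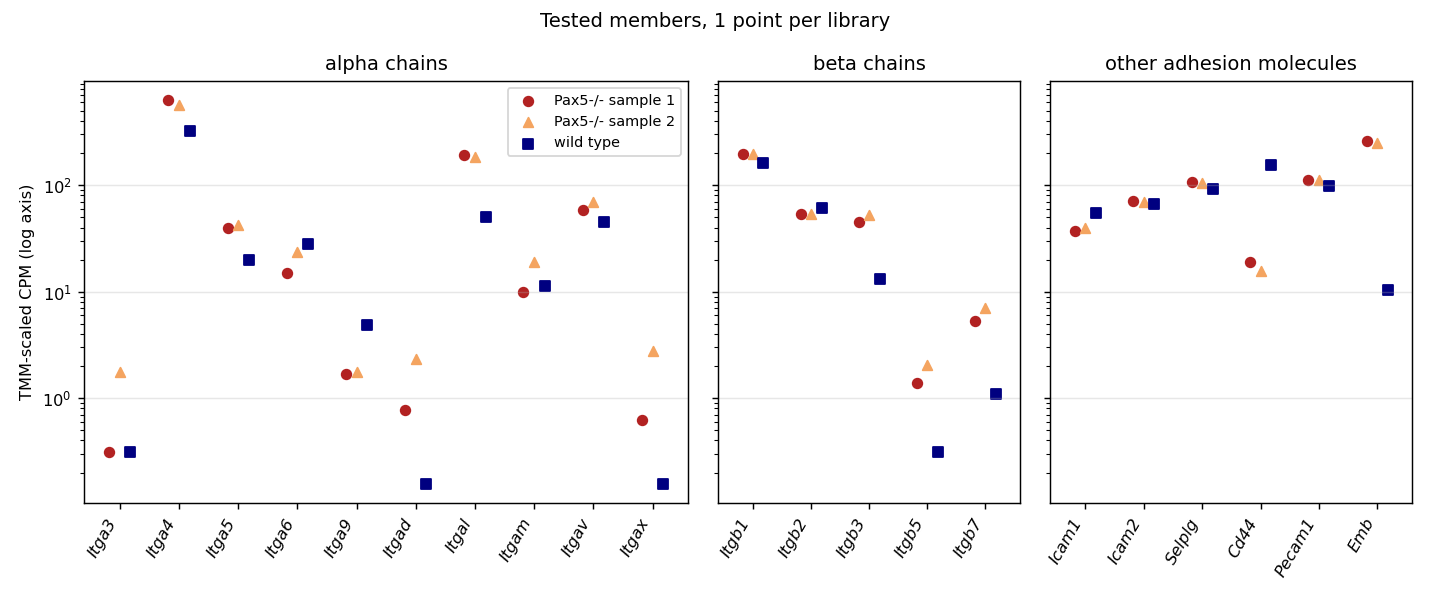
TMM-scaled CPM of the 21 tested genes on a log axis, with 1 point per library, for alpha chains, beta chains and other adhesion molecules. For Emb, at 261 and 251 CPM in Pax5-/-, the wild type lies far below at 10.5 CPM, and for Cd44 it lies far above at 156 CPM against 19.0 and 15.6.

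Among the alpha chains, 3 of 10 tested were called, all higher in Pax5-/-. Itgal, Itga4 and Itga5 are the alpha chains of LFA-1, VLA-4 and the classical fibronectin receptor. Itgal (Entrez 16408), at chromosome 7, 127296139 to 127335137 of mm10, as for all coordinates here, was counted 1245 and 1242 times in the Pax5-/- libraries and 320 times in the wild-type library. That is 187 ± 6.87 CPM (SD, n = 2) against 49.9 CPM, a 3.75-fold rise (adjusted p = 0.00639; log2 fold change 1.91, SE 0.15). Both Pax5-/- libraries stood well above the wild type and differed from each other by little.

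Itga4 (Entrez 16401; chromosome 2, 79255426 to 79333114) had 4068, 3870 and 2064 counts, in the order Pax5-/- sample 1, sample 2, wild type that is kept below. It rose from 322 CPM to a mean of 598 ± 42.0 (SD over 2 samples), with a log2 fold change of 0.89 (SE 0.12) and adjusted p = 0.0195. Itga5 (Entrez 16402; chromosome 15, 103344286 to 103366791) had 259, 287 and 128 counts. It rose from 19.97 to 41.1 ± 1.54 CPM (adjusted p = 0.0240; log2 fold change 1.04, SE 0.16). In each of these genes the wild type was the lowest library. The call of Itga4 was lost in the likelihood ratio test (adjusted p = 0.0861, edgeR). Cerkl, on the opposite strand, shares 8.04% of the exonic bases of Itga4 and had 8, 6 and 6 counts.

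RefSeq promoters (GRCm38.p6, the assembly that mm10 names) were listed for 21 of the 34 genes. The bases before the start site that lie outside any annotated exon are shown for the called genes Itga4, Itga5 and Cd44, so that genes that rose can be read beside one that fell. Emb and Itgb7, also called higher, have listed promoters that are not shown. Capitals mark matches on either strand to core motifs of factors that act beside Pax5 in early B cells: GAGGAA of PU.1, TGTGGT of Runx, CCCNNGGG of EBF and CAGNTG of E2A. Position -1 is the last base before the start site.
Itga4, chr2:79255176-79255425, plus strand: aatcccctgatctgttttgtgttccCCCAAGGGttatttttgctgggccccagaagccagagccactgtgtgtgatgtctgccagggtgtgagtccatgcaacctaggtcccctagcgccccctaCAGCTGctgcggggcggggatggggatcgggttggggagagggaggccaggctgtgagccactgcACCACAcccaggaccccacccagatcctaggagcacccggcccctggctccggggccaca
Itga5, chr15:103366792-103367041, minus strand: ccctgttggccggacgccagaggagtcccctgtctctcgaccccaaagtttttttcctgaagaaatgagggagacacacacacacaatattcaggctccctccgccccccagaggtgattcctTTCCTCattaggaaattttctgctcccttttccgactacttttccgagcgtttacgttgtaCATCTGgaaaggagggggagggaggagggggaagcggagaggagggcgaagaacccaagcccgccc
Cd44, chr2:102901670-102901915, minus strand: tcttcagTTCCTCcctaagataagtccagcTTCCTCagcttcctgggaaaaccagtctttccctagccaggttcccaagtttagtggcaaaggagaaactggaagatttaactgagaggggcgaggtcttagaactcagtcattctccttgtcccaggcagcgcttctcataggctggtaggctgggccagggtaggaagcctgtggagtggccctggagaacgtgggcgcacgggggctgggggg
In Itga4 the matches begin at -225 (EBF), -125 (E2A) and -60 (Runx). Those of Itga5 begin at -127 (PU.1) and -66 (E2A), and Cd44 holds a pair of PU.1 matches at -243 and -220. No marked matches of different motifs overlap, and the E2A match of Itga4 reads the same on both strands. Over the full 300 bases, the PU.1 core was found in 10 of 23 promoters of these genes (43.5%) and in 28.3% of all 32851 promoters. The E2A motif was in 65.2% against 51.4% of all, and the Runx and EBF motifs in 13.0% each against 16.8% and 13.7%. These are letter matches, with no binding measured.

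The other tested alpha chains were not called. Itgav, the chain of several RGD-binding integrins, had 375, 475 and 289 counts (adjusted p = 0.146; log2 fold change 0.50, SE 0.19). Itga6, a laminin-receptor chain, had 97, 159 and 181 counts, at a log2 fold change of -0.56 (adjusted p = 0.285, SE 0.32). Itga9, a chain related to Itga4, had 11, 12 and 31 counts, at -1.47 (SE 0.43, adjusted p = 0.0923). Here both Pax5-/- libraries lay below the wild type, and the likelihood ratio test called the gene (adjusted p = 0.0465, edgeR).

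Of the 4 alpha chains that pair with beta2, the 3 other than Itgal are typical of myeloid cells and stood at 18.8 CPM or less. Itgam, which encodes CD11b, had 65, 128 and 72 counts, so that the wild type lay between the Pax5-/- samples (log2 fold change 0.36, SE 0.45). In the GENCODE M21 annotation Gm49368 shares 68.7% of its exonic bases. Gm49368 was not found by symbol among the counted genes, and reads of the pair cannot be separated. Itgax, which encodes CD11c, had 4, 19 and 1 counts. The ratio was 11.1 (95% exact counting interval 1.80 to 457; adjusted p = 0.232). Itgad had 5, 16 and 1 counts, a ratio of 10.1 (1.63 to 419; adjusted p = 0.191). Sample 2 held most counts of both genes, a spread that the counting intervals leave out. Both were called in the likelihood ratio test only (adjusted p = 0.0172 and 0.0265, edgeR). Markers of monocytes and macrophages summed to 1432, 1160 and 17.6 CPM in the 3 libraries, mostly Ccr2 (1258, 1109 and 2.34 CPM). Of the 10 genes on that list, 6 were tested. Ccr2, Cx3cr1 (52, 36 and 0 counts) and Lyz2 (92, 128 and 28) were called higher. They are 50.0% of those tested, beside 9.53% of all tested genes called higher. Ly6c2 (943, 155 and 26 counts), Cd68 (32, 25 and 20) and Csf1r (8, 4 and 22) were not called. Adgre1 had 1, 0 and 0, Cd14 had 0, 1 and 2, and Fcgr1 was at 0 in all. Dendritic cell markers, also 10, summed to 1065, 403 and 638 CPM, with Bst2 at 787, 126 and 263 CPM. Among the 6 tested, Flt3 (1049, 1034 and 3 counts), Siglech (115, 182 and 18) and Ccr9 (200, 176 and 21) were called higher and Irf8 (425, 479 and 2358) lower. That is 66.7% called, beside 18.1% of all tested genes. Zbtb46 had 2, 3 and 2 counts, and Clec9a and Cd209a were at 0. In bulk RNA, fewer cells of a type and less RNA per cell cannot be told apart. The part of these cells in the values of Itgam, Itgax and Itgad was not tested.

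Itga3, a laminin-receptor chain, had 2, 12 and 2 counts, a ratio of 3.38 (0.776 to 30.6). Itga1, a collagen-receptor chain, had 9, 5 and 0 counts and was under the filter. Pooled over Pax5-/-, it stood at 2.25 times the level of 3 counts in the wild type. Itgae, the CD103 chain, had 2, 5 and 1 counts, Itga10 6, 1 and 7, and Itga2b, the platelet chain, 2, 0 and 3. Itga2 and Itga8 had 1 count each, in Pax5-/- sample 2, and Itga7 and Itga11 had none. A count of 0 allows up to 3 counts, or 0.463, 0.441 and 0.468 CPM in the 3 libraries, a limit that covers counting error alone, because reads that carry no molecular identifier cannot be taken as separate molecules.

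**Figure D2:**
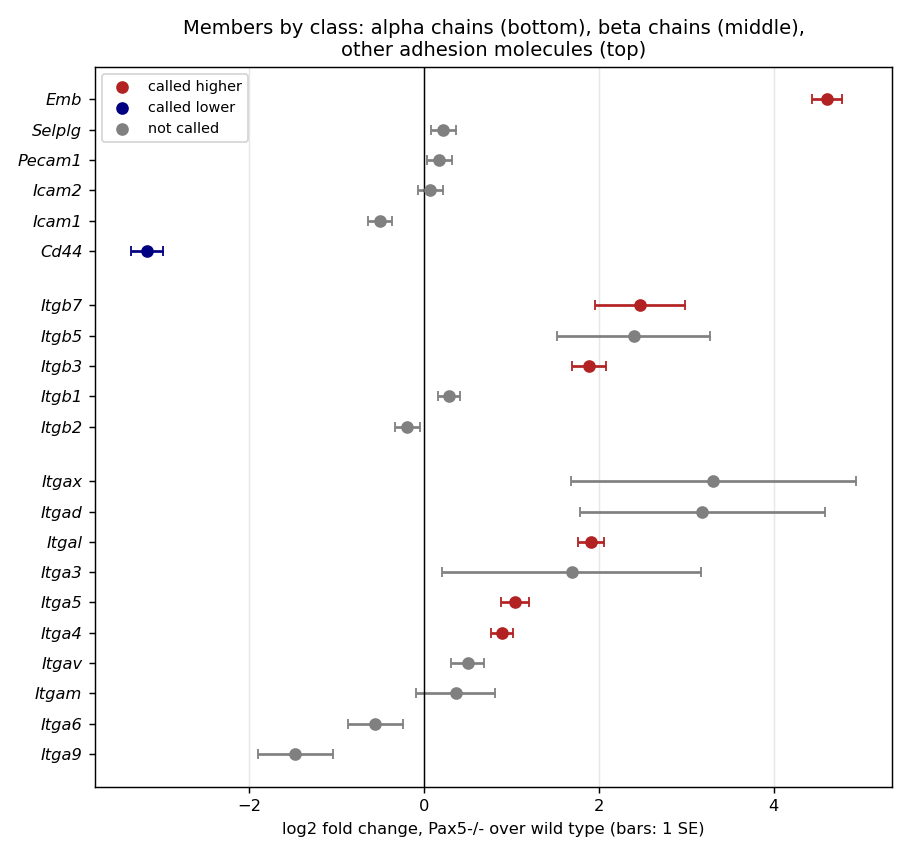
Log2 fold changes of the 21 tested genes, Pax5-/- over wild type, with bars of 1 SE, coloured by call. Emb stands at 4.61 and Cd44 at -3.17, and the genes with the widest bars, Itgax, Itga3 and Itgad, have 1 or 2 counts in the wild type.

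Among the beta chains, the 2 most abundant were not called, and of the 3 less abundant ones that were tested 2 rose. Itgb1, the common partner of most alpha chains here, had 1260, 1346 and 1030 counts (adjusted p = 0.189; log2 fold change 0.29, SE 0.13). Itgb2, the leukocyte beta chain, had 346, 365 and 392 counts (adjusted p = 0.395; log2 fold change -0.19, SE 0.14). For both genes the Pax5-/- libraries lay on one side of the wild type, by less than the test could call.

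Itgb3 (Entrez 16416; chromosome 11, 104608000 to 104670476), the beta chain of the vitronectin receptor and of the platelet fibrinogen receptor, had 294, 360 and 85 counts. It rose from 13.3 CPM to a mean of 49.1 ± 5.31 (SD over 2 samples), a log2 fold change of 1.89 (SE 0.19) with adjusted p = 0.0104. Of 10 megakaryocyte and platelet markers, Pf4, Ppbp, Gp1bb, Gp6, Treml1 and Clec1b were at 0 in all 3 libraries. The list summed to 5.87, 8.67 and 0.936 CPM.

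Itgb7 (Entrez 16421; chromosome 15, 102215994 to 102233405), which pairs with Itga4 in the gut-homing receptor and with Itgae, had 34, 48 and 7 counts. It rose from 1.09 CPM to a mean of 6.15 ± 1.28 (SD over 2 samples), a log2 fold change of 2.47 (SE 0.51) with adjusted p = 0.0460. This call was lost with library size alone, DESeq2 and limma-voom (adjusted p from 0.0538 to 0.0930). Itgb5, a partner of Itgav, had 9, 14 and 2 counts, a ratio of 5.55 (95% exact counting interval 1.37 to 48.6), and was not called (adjusted p = 0.139). Itgb4, the epithelial chain that pairs with Itga6, had 4, 8 and 7 counts and was under the filter, and Itgb6 and Itgb8 had none.

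Levels of different genes were compared per length, as CPM per kilobase of the deposited gene length. Itga4 was the highest alpha chain in every library, at 63.9, 57.8 and 32.7 CPM per kilobase. It made up 51.1%, 46.6% and 51.5% of the sum over alpha chains. Itgal came next in every library and held 29.4% and 28.1% of that sum in Pax5-/- against 15.0% in the wild type. Behind it the order differed: Itga5 (9.15 and 9.65) and Itgav (8.21 and 9.89) were close in Pax5-/- and their ranges overlapped. In the wild type Itga6 (6.71) and Itgav (6.39) stood above Itga5 (4.57). Itgb1 held 61.5%, 60.1% and 61.2% of the sum over beta chains. The share of Itgb2 was 24.8% and 23.9% in Pax5-/- and 34.1% in the wild type, while that of Itgb3 was 10.4% and 11.7% against 3.66%.

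Chains that pair did not move alike. Per length, Itgal stood at 1.97 and 1.86 times the level of Itgb2 in Pax5-/- samples 1 and 2 and at 0.447 times in the wild type. All 4 alpha partners of Itgb2 together gave 2.10 and 2.15 against 0.563. Thus the order of the LFA-1 chains was turned, with the beta chain the higher in the wild type and the alpha chain the higher in both Pax5-/- libraries. Itgb3 was close to Itgav in Pax5-/-, at ratios of 0.957 and 0.925, and at 0.359 in the wild type. Itga4 exceeded Itgb1 in Pax5-/- (1.38 and 1.23) and lay below it in the wild type (0.855). In CPM without scaling by length, Itga4 was above Itgb1 in every library, so this order rests on the deposited lengths. Itgb7 was a minor partner, at 0.0423 and 0.0559 of the level of Itgb1 in Pax5-/- and 0.0107 in the wild type. These ratios have no test, and transcript levels do not give the amounts of paired protein.

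**Figure D3:**
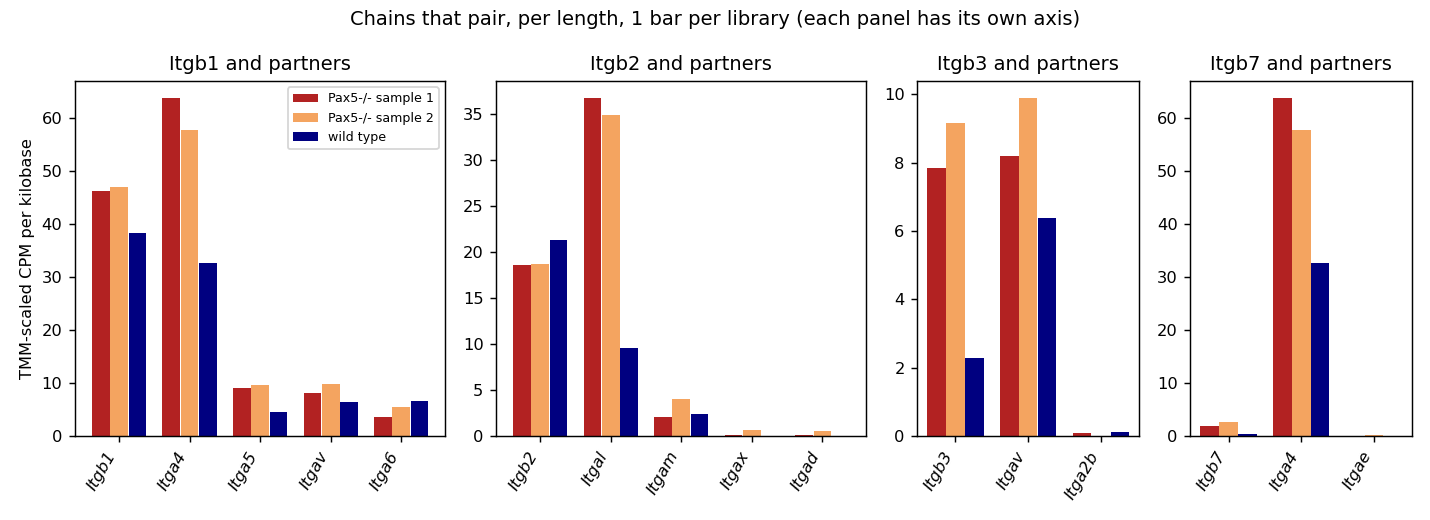
CPM per kilobase of beta chains and their alpha partners, with 1 bar per library and a separate linear axis in each panel. Itgal stands above Itgb2 in both Pax5-/- libraries (36.8 and 34.9 against 18.7 in each) and below it in the wild type (9.55 against 21.4).

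The largest called changes were outside the integrin chains. Emb (Entrez 13723; chromosome 13, 117220573 to 117274415) encodes embigin, an immunoglobulin-superfamily glycoprotein that acts in cell-matrix adhesion and as a partner of monocarboxylate transporters. It had 1693, 1706 and 67 counts. The rise was from 10.5 to 256 ± 7.57 CPM (SD, n = 2), or 24.5-fold (adjusted p = 0.00272; log2 fold change 4.61, SE 0.17). Per length it was above every integrin chain in both Pax5-/- libraries, at 99.7 and 95.6 CPM per kilobase, and at 3.99 in the wild type. Gm17509, on the opposite strand in GENCODE M21, shares 9.93% of its exonic bases and was not found by symbol among the counted genes. The relatives of Emb, named after their values were seen, were not called higher. Bsg, which encodes basigin, had 2038, 1956 and 1747 counts and was not called (log2 fold change 0.14, SE 0.13). Nptn, which encodes neuroplastin, had 376, 361 and 673 counts and was called lower, at a log2 fold change of -0.92 (adjusted p = 0.0275, SE 0.15).

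Cd44 (Entrez 12505; chromosome 2, 102811141 to 102901669), the receptor for hyaluronan, was the gene that fell. It had 123, 106 and 997 counts, or 17.3 ± 2.41 CPM (SD, n = 2) against 156 CPM. The wild-type level was 8.996 times that of Pax5-/- (adjusted p = 0.00404; log2 fold change -3.17, SE 0.18). Gene counts do not separate the splice forms of Cd44. Markers of later B cells, a list of 10, summed to 129, 162 and 971 CPM, mostly Igkc in the wild type (613 CPM). In Pax5-/- Cxcr5 was a large part of that sum (49.7, 104 and 49.3 CPM in the 3 libraries). Of the 8 tested, 5 were called lower, beside 8.55% of all tested genes, and Cxcr5, Ccr7 and Cd40 were not called. Neutrophil markers summed to 3.86, 7.93 and 72.7 CPM, with S100a9 at 0, 0 and 232 counts. Among the 5 tested, S100a8, S100a9 and Ngp were called lower, beside 8.55% of all tested genes. Ltf (11, 26 and 49 counts) and Mpo (12, 27 and 18) were not called. The part of either cell type in the value of Cd44 was not tested.

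Of the other adhesion molecules of the leukocyte surface, Icam2, Selplg and Pecam1 lay close to the wild type. Icam1, a ligand of LFA-1, had 241, 271 and 350 counts, at a log2 fold change of -0.50 (adjusted p = 0.0868, SE 0.14). Both Pax5-/- libraries were below the wild type, and the call was missed. Icam2, a further ligand of LFA-1, had 465, 472 and 430 counts (log2 fold change 0.07, SE 0.15). Selplg, which encodes the selectin ligand PSGL-1, had 698, 713 and 585 counts (0.22, SE 0.14), and Pecam1, which encodes CD31, had 729, 758 and 636 (0.17, SE 0.14). Per length, Icam2 (62.8, 60.7 and 58.7), Selplg (41.4, 40.2 and 35.04) and Pecam1 (34.0, 33.7 and 30.02 CPM per kilobase) kept the same order in all 3 libraries. Vcam1, the counter-receptor of VLA-4, had 2, 0 and 0 counts, and Esam, an endothelial adhesion molecule, 2, 3 and 0. Stromal markers, a list of 16 that feeder cells could add to, summed to 67.1, 97.7 and 48.2 CPM. Of that sum Thy1, which lymphocytes also express, gave 55.9, 87.3 and 18.7 CPM and was called higher. Fstl1 (2, 1 and 30 counts) was called lower, and Cxcl12 (18, 7 and 60) and Col1a1 (12, 6 and 23) were not called. Dcn and Lum were at 0 in all 3 libraries. The part of stromal cells in these values was not tested.

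The machinery that activates integrins and links them to actin moved in part. Of 44 genes on this list, 39 were tested. Of these, 11 were called higher, 4 lower and 24 were not called, with a median log2 fold change of 0.44. The called genes are 38.5% of those tested, beside 18.1% over all genes, 9.53% higher and 8.55% lower. Actn1, an alpha-actinin, had 210, 519 and 27 counts (adjusted p = 0.0401; log2 fold change 3.68, SE 0.72). That call was lost with library size alone and with limma-voom (largest adjusted p 0.115). Parvb, a parvin of the complex with integrin-linked kinase, stood at 36.8 ± 10.5 CPM against 6.40 CPM (2.52 on the log2 scale, SE 0.36). Zyx, the focal adhesion protein zyxin, rose from 20.1 to 72.3 ± 12.2 CPM (1.85, SE 0.23).

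Rapgef3, an exchange factor that loads Rap when cyclic AMP is bound, had 257, 246 and 31 counts and rose, with a log2 fold change of 2.97 (adjusted p = 0.00555, SE 0.22). Nedd9, a docking protein of focal adhesion kinase signalling, fell from 509 CPM to a mean of 37.5 ± 0.18 (SD over 2 samples), a log2 fold change of -3.76 (SE 0.12) with adjusted p = 0.00272. Rassf5, Flna, Lims1, Parvg, Vcl and Pxn were among the other genes called higher, and Rasgrp2, Stk4 and Cib1 the other genes called lower. The talin gene Tln1 (4260, 5175 and 3303 counts; adjusted p = 0.0922) and the leukocyte kindlin gene Fermt3 (1632, 1738 and 1197; adjusted p = 0.0797), whose products bind beta chain tails directly, were not called. Fermt1 and Fermt2, the other kindlins, had no counts.

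Of 31 ligands, 11 were tested, and 3 were called higher, 2 lower and 6 not at all (median log2 fold change -0.30), so that 45.5% were called, beside the 18.1% of all genes. Spp1, which encodes osteopontin, a ligand of Itgav and Itga4 integrins, rose from 13.4 CPM to a mean of 175 ± 32.3, a log2 fold change of 3.70 (SE 0.26) with adjusted p = 0.00515. Col4a2, a basement membrane collagen chain, had 75, 92 and 1 counts, a ratio of 80.6 (95% exact counting interval 14.3 to 3202). Its partner chain Col4a1 had 1, 0 and 0 counts. Adam15, a membrane protease with an integrin-binding domain, was called higher (log2 fold change 2.11, SE 0.25). Tgfb1, whose latent form is held and activated by Itgav integrins, fell, at a log2 fold change of -1.21 (adjusted p = 0.0160, SE 0.15), and Lamc1, a laminin chain, fell by 0.81 (SE 0.15, adjusted p = 0.0359). The call of Lamc1 was lost with library size alone and in the likelihood ratio test. Fn1, the fibronectin gene, had 11, 26 and 76 counts and was not called (adjusted p = 0.0627), but was with RLE scaling, without the filter, in the likelihood ratio test and with the fixed coefficient of variation described last.

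Selectins and the enzymes that build their ligands on proteins such as PSGL-1 went both ways, with 3 of 12 tested genes called higher, 3 lower and 6 not called (median log2 fold change 0.16; list of 16). That is 50.0% called, again beside 18.1% of all genes. Fut7, the fucosyltransferase of the sialyl Lewis x group, had 180, 185 and 1 counts, a ratio of 176 (95% exact counting interval 31.4 to 6975; adjusted p = 0.00402). Gcnt1, which makes the core branch that carries this group, was called higher (log2 fold change 1.48, SE 0.24). Spn, which encodes the surface sialomucin CD43, rose by 0.81 (SE 0.11), though not in the likelihood ratio test. Tpst1, a sulfotransferase that modifies tyrosines of PSGL-1, had 7, 1 and 426 counts and fell, at a log2 fold change of -6.74 (adjusted p = 0.00676, SE 0.54). The other such enzyme gene, Tpst2, had 177, 184 and 175 counts and was not called (adjusted p = 0.980). B4galt1 was also called lower, and Sele and Selp had no counts.

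**Figure D4:**
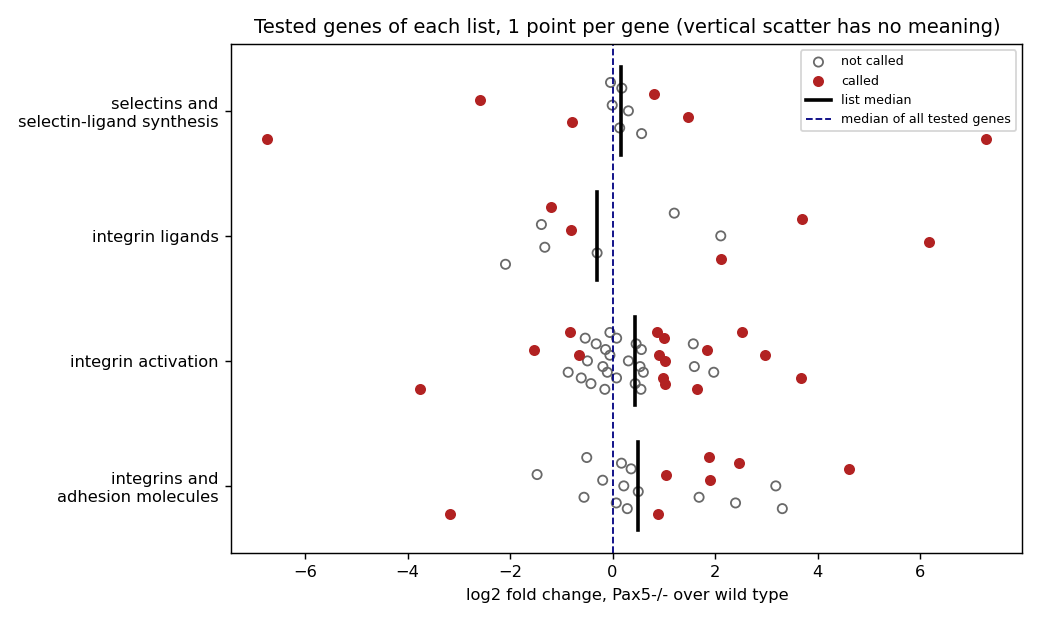
Log2 fold changes of tested genes in 4 lists, with 1 point per gene, filled where called, a black bar at each list's median and a dashed line at the median of all tested genes (0.01). Fut7 and Tpst1 lie at the far right and far left of the selectin list, and Col4a2 at the far right of the ligands.

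When every gene was given a fixed biological coefficient of variation, 0.4, in place of the estimate from 1 residual degree of freedom, Emb and Cd44 were the called genes of the 34 that held. The calls of Itgal, Itga4, Itga5, Itgb3 and Itgb7 were lost (adjusted p from 0.0704 for Itgb7 to 0.890 for Itga4, likelihood ratio test of edgeR). Of the pathway genes given with values and called, Zyx, Adam15, Tgfb1, Lamc1, Gcnt1 and Spn also lost their calls under that assumption. Emb and Cd44 were called under all 8 alternatives that gave a test.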

How the data were processed

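RNA-seq gene counts were deposited for 3 libraries. The authors made these counts with featureCounts against mm10, per the submitters' processing notes; the aligner, annotation, tool version and strandedness were not given in the sources used here. Each row, per the file headers, holds an Entrez number, a gene length in bases and a count. The series-wide table repeats these counts for each of 27179 genes. Symbols and coordinates came from RefSeq GRCm38.p6 by Entrez number (25275 matched, 93.0%); unmatched numbers stayed in the tests. Exon overlaps came from GENCODE M21.

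Testing used edgeR 4.0.16 in R 4.3.3: filterByExpr by group (a CPM equal to a count of 10 at the median library size, in at least 1 library), TMM, glmQLFit and glmQLFTest, with Benjamini-Hochberg adjustment over 11783 genes. With 1 residual degree of freedom, moderated by 3.15 prior degrees of freedom, p-values measure the spread of the Pax5-/- pair, and the wild type is assumed to vary alike. SE is the log2 fold change over the square root of F. Where the wild type had 1 to 3 counts, pooled ratios carry exact Clopper-Pearson 95% intervals. These cover counting error alone and leave out the spread between the Pax5-/- samples. At 0, a bound uses 3 counts over the group and leaves out counting error in the other group. Alternatives used limma 3.58.1 and DESeq2 1.42.0. The test was tried on simulated data.

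The genes followed and all lists were chosen with earlier results of these data known. Every gene of the list of 34 is reported. From each pathway list the 5 called genes with the largest fold changes and a mean CPM of at least 1 are given, apart from an item not reported here; other genes were named after their values were seen.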

Additional observations from a re-analysis of the deposited data

How the results depend on the processing

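Of 164 repeats of the log2 fold changes of the 21 tested genes under 8 alternatives, 152 kept direction and call, 9 lost the call, 3 gained it and none changed sign. A fixed biological coefficient of variation of 0.4 gave 1206 genes called (623 higher, 583 lower; 2130 before), 1 of the followed genes higher, 3 integrin activation genes higher and 1 lower, 1 ligand lower (Fn1, not called before, at adjusted p = 0.0441) and 1 selectin-list gene higher. The likelihood ratio test called 2 of the followed genes lower (Cd44 and Itga9) and 2 activation genes lower. With library size alone 1 ligand was called lower. The causes were not tested. Without 1 of the Pax5-/- replicates no test is possible with 0 residual degrees of freedom. Genes at least 2-fold higher by log2 CPM then ranged from 1521 to 1538 (1482 with both) and lower from 1180 to 1264 (1168 with both); among the followed genes 7 to 9 were higher (8 with both) and 2 lower. No paired analysis was possible with 1 wild-type sample. At 1 to 31 counts in the wild type, Itga3, Itga9, Itgad, Itgax, Itgb5 and Itgb7 are limited by depth.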

Other observations

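Among 10 markers listed for endothelial cells, 2 were tested and both were called higher in Pax5-/-, beside 9.53% of all tested genes. The defining receptors were near 0. Egfl7, which encodes a secreted matrix protein known to bind the Itgav and Itgb3 integrin, was counted 1018 and 1082 times in Pax5-/- and 63 times in the wild-type library, a log2 fold change of 4.005 (adjusted p = 0.00297, SE 0.18, edgeR). Plvap, which encodes a protein of endothelial diaphragms, had 27, 54 and 1 counts (ratio 39.1, 95% exact counting interval 6.82 to 1563). It entered the test through Pax5-/- libraries only. Cdh5 had 1, 1 and 4 counts, Kdr 3, 0 and 4, and Tek, Emcn and Tie1 had none.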
